A study of Mus musculus with 12 samples.

Results

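The ERBB (EGF receptor) family and its ligands were followed through keratinocyte differentiation in 10 genes chosen by symbol: the receptors Egfr, Erbb2 and Erbb3, the EGF-type ligands Areg, Ereg, Hbegf and Tgfa, the neuregulins Nrg1 and Nrg2, and the receptor inhibitor Errfi1. The expression table held 8 of the 10, among 7978 genes in all. A peak of N6-methyladenosine (m6A), the internal methyl mark of mRNA, was listed in 8 members at day 0, among 7379 genes with a peak, and in 7 at day 4, among 6945. On either day 8 of the 10 members had a peak, as did 65.7% of the 7978 genes of the expression table. All cells were primary keratinocytes from the epidermis of newborn mice, raised on growth-arrested 3T3 fibroblast feeders and kept in a low-calcium, serum-containing medium. Day 0 is the undifferentiated culture and day 4 the culture differentiated by a calcium shift, and each day gave 3 input and 3 anti-m6A immunoprecipitated libraries of polyadenylated RNA. The labels give no strain or genotype and are silent on whether replicates are separate animals, so the authors' p-values measure only the spread between these libraries, which may be technical. No column gives a single library, so sequencing depth is unknown, and each value below is the authors' summary over a day's libraries. The expression and methylation tables stop at an adjusted p or false discovery rate of 0.05, so an unlisted gene or site may have missed that limit or may never have been tested.

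The ERBB receptors are tyrosine kinases that sit in the cell membrane and signal as pairs. EGF-type ligands are made as membrane-bound precursors and released by metalloproteases. They bind Egfr, and some of them also Erbb4, whereas neuregulins bind Erbb3 and Erbb4. Erbb2 has no ligand of its own and acts as a partner of the others, and Erbb3 has little kinase activity and also acts in pairs. In epidermis, signalling through Egfr is known for keeping basal keratinocytes dividing and migrating, and the ligands are made by the keratinocytes themselves.

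The 4 EGF-type ligands among the members and the 2 neuregulins moved in opposite directions, although a further EGF-type ligand outside the members (Epgn) fell as the neuregulins did. All 4 EGF-type ligands were higher at day 4, by 1.54- to 2.48-fold, together with Erbb3 and Errfi1. Both neuregulins were lower, Nrg1 by 11.2-fold and Nrg2 by 15.3-fold, and Egfr and Erbb2 were not listed. These are values from the authors' deposited table. In counts, 6 of 10 members were higher and 2 lower. Of the 14924 genes that the authors' adjustment implies were tested, 27.1% were called higher and 26.4% lower, 53.5% in either direction. The members were chosen with results of these data known, so their count is a description. The median log2 fold change of the 8 listed members was 0.75, against 0.26 over the whole table. Since bulk RNA was measured, fewer cells that make a transcript and less of it per cell cannot be told apart.

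**Figure D1:**
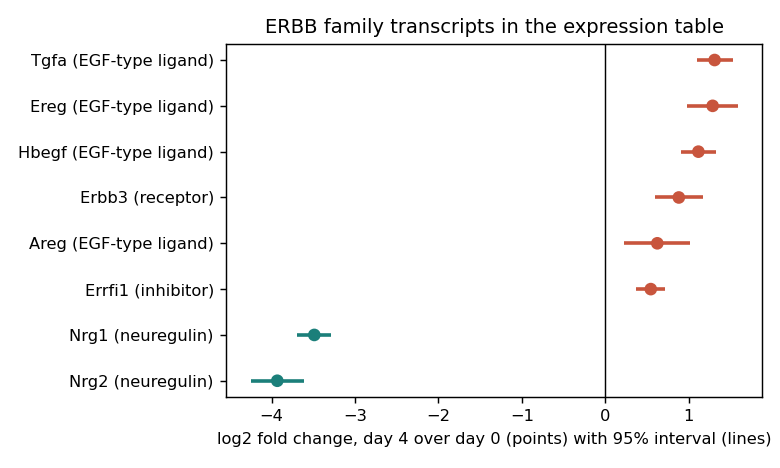
Log2 fold change of the 8 listed family members, day 4 over day 0 (horizontal axis, points), with the 95% interval from the authors' standard error (lines). The 4 EGF-type ligands, Erbb3 and Errfi1 lie to the right of 0 and the 2 neuregulins to the left of -3.

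Among the EGF-type ligands, Tgfa, a ligand made by keratinocytes whose loss gives mice wavy hair, had a mean normalized count of 5897 over the compared libraries in the authors' deposited table. It was 2.48-fold higher at day 4 (95% interval 2.14 to 2.88, log2 fold change 1.31, SE 0.11, DESeq2 adjusted p = 9.7e-32) in that deposited table. Epiregulin, Ereg, had a mean of 550 and was 2.44-fold higher (95% interval 1.97 to 3.01, DESeq2 adjusted p = 1.3e-15) in the authors' deposited table. The intervals of Tgfa and Ereg overlapped almost wholly, so these changes were not separated by their error. Hbegf, a heparin-binding ligand of Egfr and Erbb4 that is induced at wound edges, had a mean of 1134 and was 2.17-fold higher (95% interval 1.88 to 2.50, DESeq2 adjusted p = 2.6e-25) in the authors' deposited table. Amphiregulin, Areg, had the lowest mean of the listed members (136) and the largest SE on the log2 scale, at 1.54-fold higher (95% interval 1.17 to 2.02, log2 fold change 0.62, SE 0.20, DESeq2 adjusted p = 0.0047) in the authors' deposited table. Its interval overlapped that of Hbegf and reached that of Ereg only at the edge. Mean counts are not corrected for transcript length, so they show the depth behind each value and not an order of level between genes.

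These rises were of ordinary size among the genes called higher, a set that leaves out genes without a called change. Among the 4040 genes higher at day 4, 31.9% had a larger rise than Tgfa, 32.6% than Ereg, 37.4% than Hbegf and 64.7% than Areg. A change of at least 2-fold, which 11.3% of the tested genes reached upward, was met by Tgfa, Ereg and Hbegf. Downward, 9.9% of the tested genes reached it.

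Ereg and Areg are neighbours in a cluster of EGF-type ligand genes on chromosome 5. In RefSeq's GRCm38.p6 annotation, the assembly of mm10, the cluster spans 375.5 kb and its 4 protein-coding genes are all ligands: epigen (Epgn), Ereg, Areg and betacellulin (Btc). Epgn, at 91027517 to 91035212, lies 39.4 kb before Ereg, at 91074617 to 91093649, which lies 45.9 kb before Areg, at 91139599 to 91148432. The direction changed within this short stretch. Epgn, the ligand next to Ereg, was 3.31-fold lower at day 4 (log2 fold change -1.73, SE 0.15, mean 810, DESeq2 adjusted p = 3.9e-28) in the authors' deposited table, while Ereg and Areg were higher. Btc, a further 208.8 kb along, was not listed. Epgn belongs to a list of 6 other receptors and ligands of the family, of which the remaining 5 (Erbb4, Egf, Btc, Nrg3 and Nrg4) had neither a listed change nor a peak on either day.

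Start-site sequence was at hand in RefSeq's GRCm38.p6 promoter table for 5 of the 10 members (Egfr, Erbb2, Areg, Tgfa and Errfi1, the last with 2 starts), as windows of 250 bases before and 50 after a start. Areg and Errfi1, both higher at day 4, are shown because their windows share an arrangement: a full cAMP response element, TGACGTCA, followed by a TATAAA box. The 150 bases before the start of Areg (chr5:91139449-91139598, plus strand) and before the downstream start of Errfi1 (chr4:150854920-150855069, plus strand) are given 5′ to 3′, with these 2 motifs in capitals.

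Areg: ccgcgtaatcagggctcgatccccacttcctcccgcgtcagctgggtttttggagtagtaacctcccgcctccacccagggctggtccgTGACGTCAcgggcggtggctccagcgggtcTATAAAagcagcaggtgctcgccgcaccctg
Errfi1: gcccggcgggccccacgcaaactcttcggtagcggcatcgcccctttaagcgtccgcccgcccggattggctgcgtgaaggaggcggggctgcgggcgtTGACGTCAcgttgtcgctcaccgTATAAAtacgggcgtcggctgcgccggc

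The element began 61 bases before the start in Areg and 51 in Errfi1, and the TATAAA box 31 and 28 bases before it. Both motifs were searched on both strands, and TGACGTCA reads the same on each. Over all 32851 windows of the table, 1.79% held TGACGTCA, 13.6% held TATAAA or its reverse, and 0.170% held both. The windows of Tgfa, Egfr and Erbb2 and the upstream start of Errfi1 held neither. The AP-1 letters TGACTCA were in none of the 6 windows and in 5.20% of all windows. A match is a run of letters in the window, and no factor was measured here.

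Of the receptors, Erbb3 (chromosome 10, 128567523 to 128589635, minus strand) was the listed one. It had a mean normalized count of 1870 and was 1.84-fold higher at day 4 (95% interval 1.51 to 2.25, log2 fold change 0.88, SE 0.15, DESeq2 adjusted p = 1.4e-08) in the authors' deposited table. Erbb3 is also made by melanocytes. Of 8 melanocyte markers, 2 were higher in the authors' deposited table, Mitf (log2 fold change 1.65, SE 0.21, mean 128) and the low-count Kit (6.14, SE 1.41, mean 4.74), named after its value was seen, and Dct, Tyr, Tyrp1, Pmel, Mlana and Sox10 were not listed. The part of melanocytes in the Erbb3 value was not tested. Egfr (chromosome 11, 16752203 to 16913907, plus strand) and Erbb2 (chromosome 11, 98412484 to 98437716, plus strand) had no listed change, although their peaks show that both transcripts were recovered on both days.

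Errfi1 (chromosome 4, 150853796 to 150868889, plus strand) encodes MIG6, a protein that binds active ERBB kinases and blocks them, and is itself induced by their signalling. It was 1.46-fold higher at day 4 (95% interval 1.29 to 1.65, SE 0.09 on the log2 scale, mean 2456, DESeq2 adjusted p = 7.3e-09) in the authors' deposited table. Of all genes that were higher, 71.5% had a larger rise than Errfi1.

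The neuregulins had the large changes of the family. Nrg1 (chromosome 8, 31807452 to 32891609, minus strand), a ligand of Erbb3 and Erbb4 with many isoforms, had a mean normalized count of 1150 and a log2 fold change of -3.49 (SE 0.10, DESeq2 adjusted p = 1.2e-239) in the authors' deposited table. This corresponds to an 11.2-fold fall, with a 95% interval of 9.73 to 12.9. Nrg2 (chromosome 18, 36014581 to 36197532, minus strand) had a mean of 1399 and a log2 fold change of -3.93 (SE 0.16, DESeq2 adjusted p = 2.9e-128), a 15.3-fold fall (95% interval 12.2 to 19.0), in the authors' deposited table. Only 2.01% of the 3938 lower genes fell further than Nrg1 and 1.14% further than Nrg2. Among lower genes with a mean of at least 100 they ranked 23rd and 12th. The 2 intervals overlapped at their edges.

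**Figure D2:**
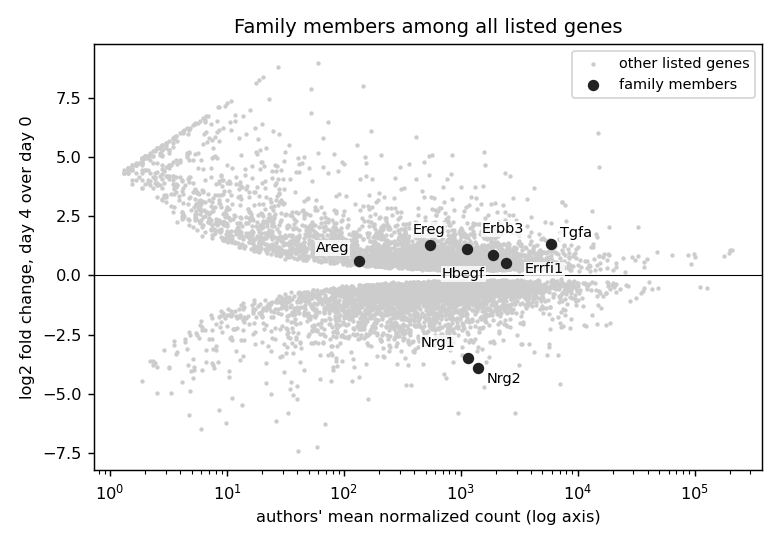
Log2 fold change, day 4 over day 0 (vertical axis), against the authors' mean normalized count (horizontal axis, log scale) for all 7978 listed genes (grey) and the 8 listed family members (black). The 2 neuregulins stand at the lower edge of genes of their level, whereas the 6 higher members lie within the main body of higher genes.

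The cultures were checked against markers, since neuregulins can also be made by fibroblasts. Of 11 keratinocyte markers 10 were listed, 6 of them higher and 4 lower, and the authors' deposited table gave the basal keratin Krt14 a mean of 209477 normalized counts. Krt10, a keratin of differentiating cells (log2 fold change 1.47, SE 0.15), and involucrin, Ivl (3.67, SE 0.12), rose, but so did Krt14 (1.06, SE 0.11) and its basal partner Krt5 (0.96, SE 0.09, named after its value was seen), while the basal integrin Itga6 (-0.99, SE 0.14) fell (authors' deposited table). The other lower markers were Trp63 (-0.92, SE 0.11), Itgb4 (-0.67, SE 0.12) and Col17a1 (-0.55, SE 0.10) in the authors' deposited table, named after their values were seen. A list of 15 markers of feeder fibroblasts included 5 higher and 1 lower gene and 9 unlisted ones. Postn was at 3.66 (SE 0.22), Fn1 at 1.07 (SE 0.14), Fbln2 at 0.56 (SE 0.11) and Col6a1 at -2.07 (SE 0.24) in the authors' deposited table. The other higher ones, named after their values were seen, were Col5a1 (4.58, SE 0.38, mean 65.8) and Pdgfra (1.73, SE 0.31, mean 50.9) in the authors' deposited table. Col1a1, Col1a2, Col3a1, Thy1, Dcn, Lum, Pdgfrb, Twist1 and Vim were the unlisted ones, so their levels are not known here. Immune and endothelial genes numbered 10, with 2 higher and 1, Cd68, lower (-1.92, SE 0.23, mean 159) in the authors' deposited table. The higher ones were Kdr (0.38, SE 0.13, mean 1175) and the low-count Pecam1 (2.32, SE 0.94, mean 5.30) in the authors' deposited table. Pecam1 was named after its value was seen. The part of these other cells in the family's values was not tested.

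Methylation was then examined peak by peak. The family's peaks numbered 16 at day 0 and 17 at day 4. Egfr, Erbb2, Erbb3, Hbegf, Tgfa, Nrg1 and Errfi1 had a peak on both days and Nrg2 at day 0. Areg and Ereg had none. Within 5000 bp of the annotated 3′ end, counted along the genome with introns, lay 13 of 16 peaks at day 0 and 14 of 17 at day 4, against 64.1% and 65.7% of all peaks in protein-coding genes. In Hbegf (10.9 kb) and Errfi1 (15.1 kb) that window covers much of the gene. Of the 16 day 0 peaks, 6 stood at exactly the same coordinates at day 4 (37.5%, against 19.3% of all day 0 peaks), and 13 (81.2%) were overlapped by a day 4 peak, against 70.2% of all. Of the 17 day 4 peaks, 12 (70.6%) overlapped a day 0 peak, against 78.9% of all. Enrichment scores are the authors' own, with no stated scaling, and are used below only to rank peaks within a day.

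**Figure D3:**
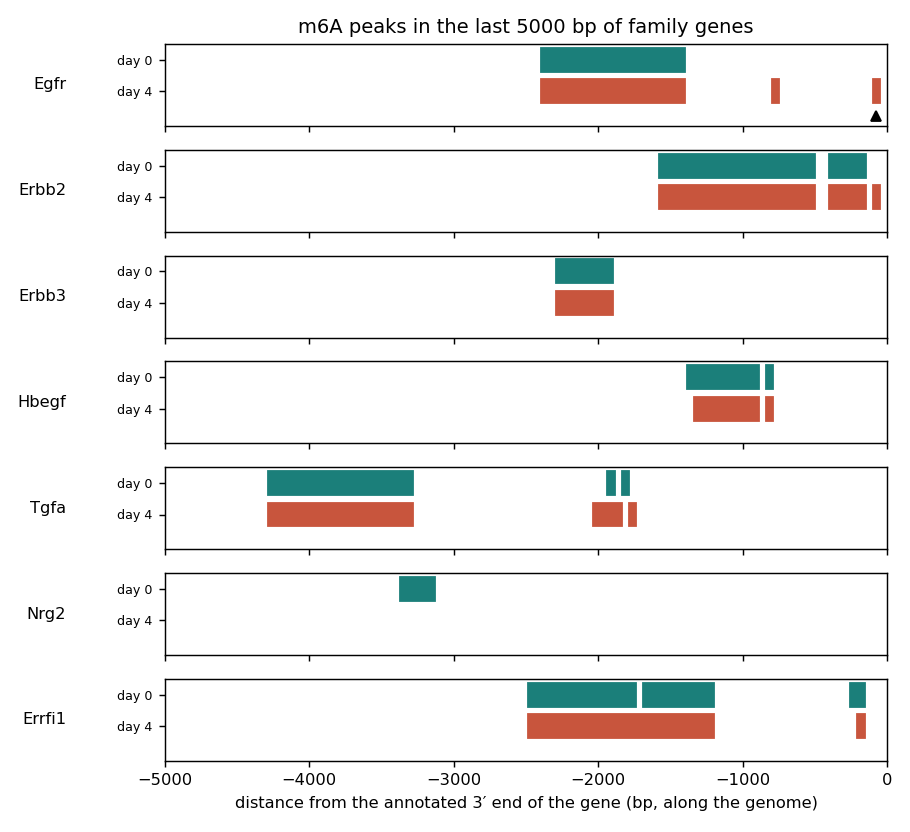
Listed m6A peaks of 7 family genes by distance from the annotated 3′ end (horizontal axis, bp along the genome), with day 0 above and day 4 below in each panel. The triangle marks the called methylation gain of Egfr. Peaks further than 5000 bp from the 3′ end, which are 1 of Egfr, 2 of Hbegf and all 3 of Nrg1, are not drawn.

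Egfr and Erbb2 carried the highest-scoring peaks of the family on both days, and that of Erbb3 scored below the main peaks of Tgfa, Nrg1 and Hbegf. The main Egfr peak, 999 bp long from 16911512 to 16912510 and ending 1397 bp before the annotated 3′ end, scored 659 at day 0 and 312 at day 4. It ranked 136th of 19920 peaks at day 0 and 261st of 18423 at day 4. The main Erbb2 peak, from 98436137 to 98437216 and 500 bp before the 3′ end, scored 486 at day 0 (rank 271) and 382 at day 4 (rank 152). A second Erbb2 peak, from 98437317 to 98437566, was likewise at the same coordinates on both days, with scores of 108 and 60.6. The single Erbb3 peak, from 128569418 to 128569814, was also unmoved, with 13.5% of day 0 peaks and 10.3% of day 4 peaks scoring higher. So the main peak of each of these receptors was listed at identical coordinates before and after differentiation.

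Around these fixed peaks, Egfr and Erbb2 had additional short peaks at day 4. Egfr went from 1 listed peak to 4, and the 3 additional ones were each 50 bp long. They began 50 bp after the annotated 5′ end (16752253 to 16752302, score 16.8), and ended 749 bp (16913109 to 16913158, score 10.2) and 50 bp (16913808 to 16913857, score 21) before the 3′ end. Erbb2 had 1 additional 50 bp peak, from 98437617 to 98437666 and ending 50 bp before the 3′ end (score 20.7). Their scores lay near or below the middle of the day 4 list, with 43.7% to 67.0% of its peaks scoring higher. The authors' unadjusted p-values of these 4 peaks were between 1.0e-09 and 1.0e-08.

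**Figure D4:**
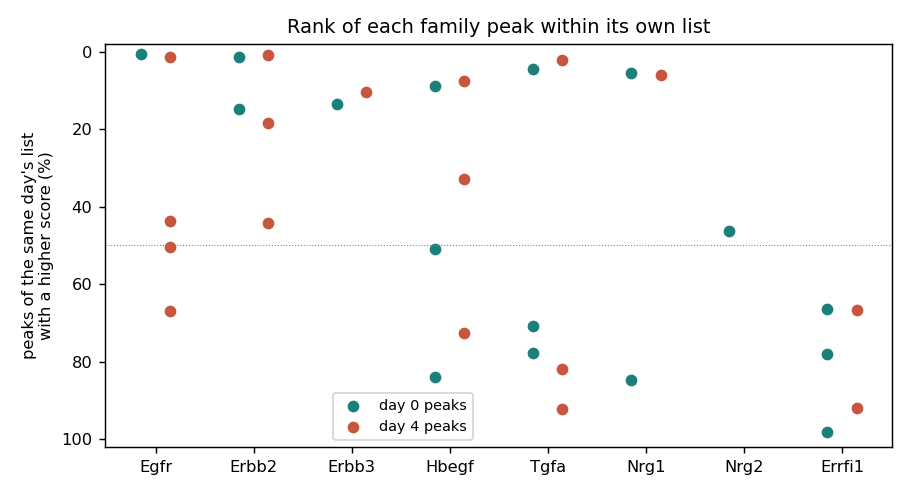
Share of the same day's peaks that scored higher (vertical axis, percent, highest-scoring peaks at the top) for each listed peak of the 8 family genes with a peak, at day 0 and day 4. The top peaks of Egfr, Erbb2, Hbegf, Tgfa and Nrg1 lie within the highest 10% of both lists, and all Errfi1 peaks lie in the lower part.

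Among the ligands, Tgfa and Hbegf kept a strong peak near the 3′ end. The main Tgfa peak (chromosome 6, 86271460 to 86272464) stood at the same coordinates on both days, with scores of 276 and 270, above all but 4.41% of day 0 peaks and 2.07% of day 4 peaks. It lay 3280 bp before the end of the gene, which spans 86195038 to 86275744 on the plus strand. The weaker Tgfa peaks lay between 86273708 and 86274006 on both days with shifted borders. The main Hbegf peak (chromosome 18, from 36505817) ended at 36506312 at day 0 and at 36506262 at day 4, with scores of 169 and 130. A 50 bp Hbegf peak next to it was fixed at 36505718 to 36505767. A weak Hbegf peak within the gene (36512653 to 36512702, score 6.5) was listed at day 0, and another at its 5′ end (36515657 to 36515706, score 8.64) at day 4.

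Areg and Ereg had no listed peak on either day. Among genes of the expression table with a mean within 1.5-fold of that of Areg, 48.3% of 804 had a peak on at least 1 day, and of those near the mean of Ereg 79.0% of 1764 did. A missing peak at the level of Areg was therefore common, and at the level of Ereg less so. No source used here says if the peak caller tested either transcript. Their neighbour Epgn went from 3 listed peaks to 1, the latter at unmoved coordinates (91034628 to 91034726).

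The neuregulins lost listed peaks. Nrg1 had a strong peak from 31818077, which ended at 31818517 at day 0 (score 241) and at 31818370 at day 4 (score 151), with 5.40% and 6.02% of peaks scoring higher. Its weak second day 0 peak (31818615 to 31821271, score 6.29) had no counterpart at day 4. Nrg2 had 1 peak at day 0 (36017708 to 36017955), with a score of 24.8 and an unadjusted p of 1.1e-08 from the authors, and none at day 4. Both transcripts had fallen over 10-fold. They are among 36 genes with a log2 fold change of -3 or below, a mean of at least 100 and a day 0 peak. Of these 36, 27 (75.0%) had no day 4 peak and 35 had fewer peaks at day 4. Nrg1 was thus in the smaller group that kept a peak. Counted per peak over all genes, 70.2% of day 0 peaks were overlapped at day 4. The part of the expression fall in the peak loss was not tested. No site in either neuregulin was listed as differentially methylated.

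Errfi1 was methylated over a long but low-scoring stretch. Day 0 peaks from 150866407 to 150867149 (score 8.06) and from 150867199 to 150867693 (score 11.9) were listed at day 4 as a single 1287 bp peak with the same outer borders (score 10.3). A short peak near the 3′ end was listed at 150868633 to 150868732 at day 0 and at 150868683 to 150868732 at day 4. From 66.3% to 98.1% of peaks on their day scored higher than the Errfi1 peaks.

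The methylation table tested the change between days directly, and 2 members held a called site, both gains at day 4. The table implies 36796 tested sites, of which 6.96% were called, 4.79% as gains and 2.17% as losses. Of the 7992 genes with a listed peak on either day, 25.2% held a called site, and of the 8 family genes with a peak, 2 did. Their share was therefore that of the background. The Egfr gain coincided with the last of its additional day 4 peaks, from 16913808 to 16913857, where the authors' deposited table gave a log fold change of 6.26 at a false discovery rate of 0.0010. The Hbegf gain, from 36515558 to 36515756, began 49 bp after the annotated 5′ end and covered the 5′ peak listed at day 4, and the authors' deposited table gave it a log fold change of 2.99 at a false discovery rate of 0.0020. No source used here gives the base of these logs, and the median over 1611 finite gains was 1.82. Egfr ranked 5th among the finite gains and 18.6% of them were larger than that of Hbegf. A further 152 called gains had an infinite log fold change and stand outside this ranking. The Egfr site spans 50 bp, and its day 4 peak scored 21, with 43.7% of day 4 peaks scoring higher. Its rank is therefore one of relative change and not of methylation level. Neither gained site overlapped a day 0 peak. Both lay within 200 bp of an end of the annotated gene, as did 12.5% of day 4 peaks for the 3′ end and 6.60% for the 5′ end. Antibodies against m6A also bind m6Am, a related mark next to the mRNA cap, so the 2 marks cannot be told apart at the 5′ ends of Egfr and Hbegf. The main peaks of Egfr, Erbb2, Erbb3, Hbegf, Tgfa and Nrg1, and all peaks of Errfi1, held no called change.

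The wider pathway was described with 7 lists of 90 genes in all, of which 26 were higher, 25 lower and 39 not listed. Counts per list are read against the 27.1% higher and 26.4% lower of all tested genes.

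**Figure D5:**
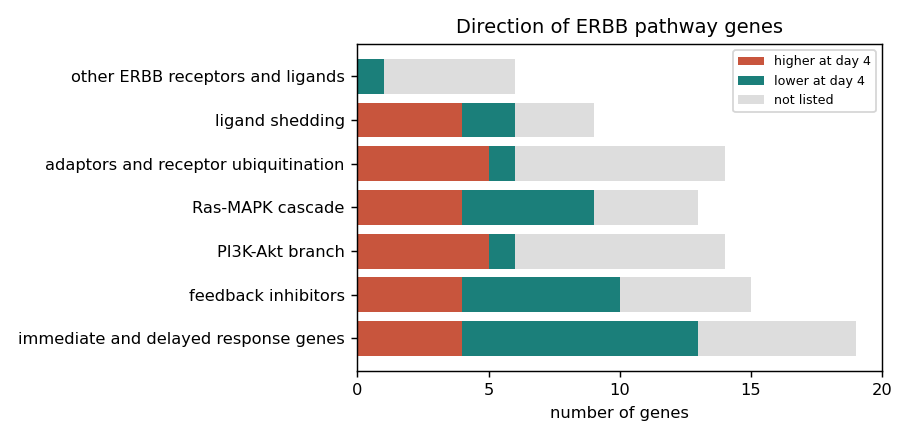
Number of genes higher at day 4, lower at day 4 and not listed (horizontal axis) in each of 7 lists of the ERBB pathway. The list of response genes has 9 lower and 4 higher genes, and the adaptor and PI3K lists have 5 higher and 1 lower each.

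Genes of ligand release, the inhibitor Timp3 among them, were higher in 4 of 9 and lower in 2. Frmd8, a partner of the iRhom proteins that carry the sheddase Adam17, was at 0.81 (SE 0.15) and the metalloprotease Adam12 at 0.75 (SE 0.11) on the log2 scale in the authors' deposited table. The metalloprotease inhibitor Timp3 was lower (-0.74, SE 0.18) in the authors' deposited table. So was the iRhom gene Rhbdf2 (-0.58, SE 0.13, authors' deposited table), named after its value was seen. Adam17 itself had no listed expression change. Of the 9 genes, 8 had a peak on each day. Of the genes of the expression table, 65.7% had one on either day. Adam17, Adam9 and Rhbdf1 have peaks but no line in the expression table, and mean counts were not matched, so these shares are over unlike sets. Of the 8 genes with a peak, 3 held a methylation gain, against 17.2% of all genes with a listed peak.

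Adaptors and ubiquitin ligases of the receptors were higher in 5 of 14 and lower in 1. The docking protein Gab1 (0.60, SE 0.13), the adaptor Grb2 (0.54, SE 0.10) and Rnf41, a ubiquitin ligase for Erbb3 (0.49, SE 0.11), were higher on the log2 scale in the authors' deposited table. The adaptor Shc1 was lower (-0.31, SE 0.12) in the authors' deposited table. The Ras-MAPK cascade was split, with 4 of 13 higher and 5 lower. Its scaffold Ksr1 (log2 fold change 1.04, SE 0.16) and the kinase Mapk3 (0.53, SE 0.08) were higher and Map2k2 (-0.53, SE 0.16) lower in the authors' deposited table. In the PI3K-Akt branch 5 of 14 were higher and 1 lower, with the catalytic subunit Pik3cb at 1.25 (SE 0.11), the regulatory subunit Pik3r2 at 0.87 (SE 0.14) and the mTOR partner Rptor at -0.49 (SE 0.11) on the log2 scale in the authors' deposited table.

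Feedback inhibitors other than Errfi1 were higher in 4 of 15 and lower in 6. The line of the ERK phosphatase Dusp4 had the largest rise, with a log2 fold change of 3.56 (SE 0.16, mean normalized count 469), (authors' deposited table). That line carries the Ensembl identifier of Dusp9, which has a line of its own at -1.09 (SE 0.16) in the authors' deposited table. The 3 day 4 peaks under Dusp4 lie inside RefSeq's span of Dusp4, so the symbol was kept. Spry2 was also higher (1.41, SE 0.12) and Spred2, another inhibitor of Ras-MAPK signalling, lower (-1.83, SE 0.16) in the authors' deposited table. Most genes of the response list, though not Elk1, are known as switched on when the cascade is active. In this list 9 of 19 were lower and 4 higher, with a median log2 fold change of -1.02 over the 13 listed. Cyclin D1, Ccnd1 (-3.37, SE 0.11), the urokinase receptor Plaur (-2.11, SE 0.17) and Fos (-1.84, SE 0.16) fell, whereas the low-count Egr3 was higher (1.71, SE 0.74, mean 7.39 normalized counts) in the authors' deposited table. The other higher genes, named after their values were seen, had larger counts. They were Ptgs2 (0.86, SE 0.15, mean 3144), Elk1 (0.57, SE 0.15, mean 277) and Junb (0.45, SE 0.17, mean 3022) in the authors' deposited table. Etv5, chosen after its value was seen because it fell furthest, was at -4.01 (SE 0.31, mean 80.2 normalized counts) in the authors' deposited table. In this list 8 of the 15 genes with a peak held a gain and none a loss. Of all genes with a peak 17.2% held a gain, and the list was chosen with earlier results known.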

How the data were processed

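Primary mouse keratinocytes were profiled in 12 libraries, placed in groups by title. The submitters' processing notes name HISAT2 2.1.0, DESeq2 1.18.1 and mm10. The peak caller, the joining of replicates and the methylation test are in none of the sources used here. Per the file headers, each deposited peak list gives an enrichment score and an unadjusted p-value per peak. The deposited expression table gives a mean normalized count (a signal averaged over libraries by the authors), a log2 fold change with its SE, a statistic used as a score, and p-values, under DESeq2's column names. The deposited methylation table gives a log fold change of unstated base, treated as a score, with p-values and false discovery rates.

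No value per library was used, so no test was run: folds and 95% intervals were computed from the authors' log2 values and SEs, assuming normal error. The number tested was taken as the largest adjusted p times rank over p. The header does not name a direction. Day 4 over day 0 was read from peaks, since 93.8% of 497 listed genes with peaks at day 4 only were higher, against 4.02% of 797 with peaks at day 0 only, and 98.8% of 419 sites over a day 4 peak only were gains, against 24.4% of 119 over a day 0 peak only. Overlap meant at least 1 bp on the same strand. Gene spans and promoters came from RefSeq tables of GRCm38.p6, where all 10 members matched by symbol. No member carries an Ensembl identifier of another gene. Symbols were used throughout. Exon positions and peak sequences were not analysed here.

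The members and 11 lists were chosen with earlier results of these data known. Named genes were all members and, per list, the 3 largest changes at a mean of at least 100, the largest in the minority direction, and all 6 other receptors and ligands. Alternatives were an adjusted p or false discovery rate under 0.01, a mean of at least 100, a change of 2-fold or more, peaks at p under 1e-5 and overlap of at least 50% of both peaks. The overlap and count steps were tested on simulated data. Software was Python 3.11.15, pandas 2.3.3, numpy 2.4.6 and matplotlib 3.10.9.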

Additional observations from a re-analysis of the deposited data

How the results depend on the processing

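Of 16 alternative counts, 15 stayed within 1.5-fold of those reported. At a minimum change of 2-fold, 3 members were higher in place of 6, since Erbb3, Areg and Errfi1 changed less, and the 2 neuregulins stayed lower. All member peaks passed a p under 1e-5, and both gains passed a false discovery rate under 0.01. With 50% of both peaks shared, 10 peaks of each day matched, against 13 of day 0 and 12 of day 4. No loss was listed at either limit. No paired analysis was possible because the tables carry no value per library, and for the same reason no library could be left out. Unknown depth limits the reading of unlisted genes and absent peaks.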
